A study of Tetradesmus deserticola with 10 samples.

Results

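Cells of a desert green alga that had been dried and then wetted for 1 h (Rehydrated) were compared with cells of the same culture type that were still losing water, with 7.5 h of drying behind them and 60% of their volume gone (Late). The comparison takes 4 of the 10 libraries of the series, 2 per stage, chosen by their stage labels, and covers all 20783 assembled genes. The alga is Tetradesmus deserticola, strain Sni-2, which the submitters call Acutodesmus deserticola. Drops of 40 µL of liquid culture were dried on cover glass. The other stages were drops taken at once (Hydrated), drops after 2.5 h of drying that had lost 25% of their volume (Early), and fully flat spots that had stayed a further 11 h in the drying chamber, about 24 h after the start (Dry). No agent other than drying and rewetting is given. Wet drops of matching age were not analysed here, so water status and elapsed time cannot be told apart. Whether paired libraries stem from different cultures is not given in the labels. The p-values therefore rest on a library-to-library spread that could be technical only.

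Green microalgae of desert soil crusts are known for surviving the loss of nearly all their cell water and for resuming photosynthesis after wetting. Cells prepare for drying by changing their transcripts while water remains, and in desiccation-tolerant mosses some transcripts are stored in the dry tissue and used on rewetting. A cell that is rewetted could therefore pass back through the states it went through while drying, or go on from the dry state by another route, and the Late stage is the last sampled wet state before dryness. The files pair no gene identifier with a name, so genes are given by their assembly identifiers, without position, function or sequence, and no list of known genes could be applied. For the same reason the identity of the cells could not be checked against marker genes.

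The Rehydrated libraries were the shallowest of the series, with 644705 and 826632 expected counts, against 1162221 and 1880952 in the Late libraries. A gene was tested where enough libraries held about 10 counts, which left 9856 genes. The untested genes took 7.02% and 2.56% of the counts in the Rehydrated libraries, against 1.16% and 0.895% in the Late libraries. The 10 most abundant genes took 16.9% and 20.4% of the counts in Rehydrated, against 34.4% and 43.6% in Late. Counts were scaled with TMM factors, which are meant to correct for such differences in composition. Whether they did so here was not tested. The factors were 1.99 and 1.24 for Rehydrated, against 1.09 and 0.759 for Late and 0.471 and 0.403 for Dry. Rehydrated replicate 1 thus stood apart in its untested share and its factor, and the counts of called genes are also given without it.

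Rehydrated cells differed from Late cells across much of the transcriptome and in both directions. Of 9856 genes tested, 1891 were higher in Rehydrated and 1819 were lower, which is 37.6% of the genes (19.2% higher and 18.5% lower; edgeR's quasi-likelihood test, Benjamini-Hochberg adjusted p under 0.05). The median log2 fold change was 2.56 among the higher genes and -2.10 among the lower genes. Both libraries of Rehydrated lay above both of Late in 35.4% of genes and below them in 32.3%. Here and below, fits without 1 library had a stage of 1 library and reran the filter. Their counts therefore come from another set of genes than the 9856, and they mix a change of filter with the loss of a library. Without Rehydrated replicate 1 there were 1382 higher and 1463 lower genes, and without Rehydrated replicate 2 1526 and 1875. Without Late replicate 1 the higher genes numbered 825 and without Late replicate 2 1097, while the lower genes numbered 1655 and 1647. The split also rests on the scaling: relative to plain library totals 2938 genes were higher and 772 lower, since the median log2 fold change of all genes was 0.87 there and 0.07 under TMM. Called the same way under 4 scalings were 1890 higher and 772 lower genes, and none of the TMM calls changed direction under another scaling.

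**Figure D1:**
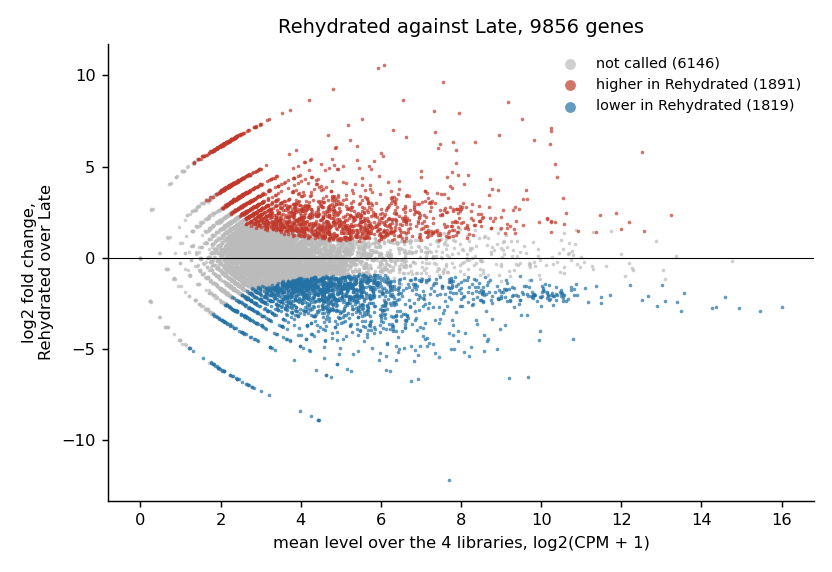
Each point is 1 of the 9856 genes, with its mean level over the 2 Rehydrated and 2 Late libraries on the horizontal axis, as log2(CPM + 1), and its log2 fold change, Rehydrated over Late, on the vertical axis. By mean count over all 10 libraries, which is not the plotted axis, 5865 genes lie under 20 counts. Of these, 18.2% are among the 1891 higher genes and 7.35% among the 1819 lower genes. By the same measure 189 genes have a mean of 1000 counts or more, and 100 of them are lower. The curved lines of points at the left are genes with few or no counts in 1 of the stages.

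Shifts of more than 2-fold could be shown for 1979 genes, 20.1% of those tested, with 1007 higher (10.2%) and 972 lower (9.86%; edgeR's glmTreat test against a log2 fold change of 1). Without Rehydrated replicate 1 there were 1476, and without Late replicate 1 there were 1308. Genes shown to lie close to their Late level were few. The 95% interval of the log2 fold change lay inside -1 to 1 for 229 genes, and 5917 genes were neither called nor held within 2-fold, so for most genes that missed the threshold the data do not say whether the Late level had been regained. In Early vs Hydrated, by the same rule, 791 genes were held within 2-fold and 499 (5.06%) were called.

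By mean count over the 10 libraries, the lower genes stood above the genes at large, while the higher genes were close to them. These means are not scaled for depth and include the Rehydrated and Late libraries that gave the calls. The Rehydrated libraries, the shallowest, weigh least in them, so the means are not independent of the calls. The median of mean counts was 45 among the lower genes, 15.3 among the higher genes and 14.6 over all genes tested. A mean under 20 counts over the 10 libraries was found for 5865 of the 9856 genes tested. Of these 5865, 1069 (18.2%) were higher and 431 (7.35%) lower, against 19.2% and 18.5% of all genes tested. Among the 189 genes with a mean of 1000 counts or more, 30 were higher and 100 were lower, with a median log2 fold change of -1.51. Among the 100 genes that took most of the counts on average, 16 were higher and 47 lower under TMM, and their median log2 fold change was -0.77. Under library totals 28 of these were higher and 40 lower, with a median of 0.01. The median half-width of the 95% interval was 1.56 on the log2 scale below 20 counts and 0.88 between 100 and 1000 counts, so weakly expressed genes were called only where their change was large.

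The shares of counts held by these groups of genes differed widely between the stages. The genes called higher took 36.8% and 33.3% of all counts in the Rehydrated libraries, against 4.79% and 3.97% in the Late libraries. The genes called lower took 18.9% and 25.3% in Rehydrated, against 68.6% and 72.5% in Late. The genes tested and not called also took a larger share in Rehydrated, 37.3% and 38.8%, against 25.4% and 22.6% in Late. These values describe the groups that the test chose in the same libraries. The levels of the remaining stages are not part of the contrast, but their libraries shared in the filter, the TMM factors and the estimate of spread. The higher genes took 7.97% ± 0.795 (SD, n = 2) of counts in Hydrated, 5.54% ± 1.75 in Early and 35.4% ± 1.11 in Dry. The lower genes took 59.4% ± 1.64 in Hydrated, 64.9% ± 5.70 in Early and 40.1% ± 0.137 in Dry. For the higher genes the Dry libraries overlapped with the Rehydrated libraries, whereas for the lower genes they lay between Late and Rehydrated.

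**Figure D2:**
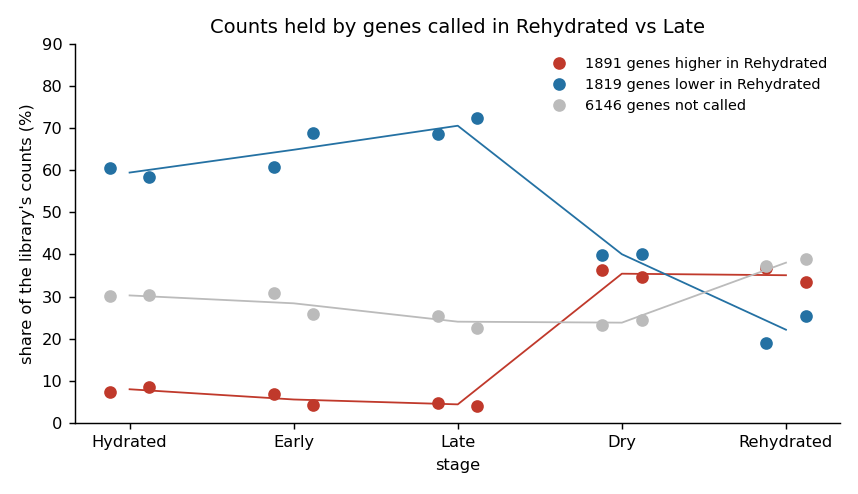
Share of each library's counts, in percent, taken by the genes called higher, called lower or not called in Rehydrated vs Late, by stage in the order of the course; points are libraries and lines join stage means. The higher genes take 4.38% of counts in Late, 35.4% in Dry and 35.1% in Rehydrated on average, and the lower genes 70.6%, 40.1% and 22.1%.

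The comparisons of these genes with other stages share libraries with each other, and their values are set side by side only as a description. The genes higher in Rehydrated than in Late had a median log2 fold change of 2.25 in Dry vs Late, 0.57 in Rehydrated vs Dry and 1.79 in Rehydrated vs Hydrated. The genes lower in Rehydrated than in Late had medians of -1.86, -0.49 and -1.61 in the same comparisons. Over the genes not called the medians were -0.51, 0.64 and -0.04. The called genes were chosen by their Rehydrated and Late levels, so Rehydrated was favoured in advance as their extreme stage and Late disfavoured. The same shares over all genes tested are not given. Of the 1891 higher genes, 1090 (57.6%) had their highest stage mean in Rehydrated, 710 (37.5%) in Dry and 90 in Hydrated. Of the 1819 lower genes, 1036 (57.0%) had their lowest stage mean in Rehydrated, 712 (39.1%) in Dry and 66 in Hydrated. With library totals these counts were 1666 and 139 for the highest mean in Rehydrated and in Dry, and 404 and 1361 for the lowest, so whether Rehydrated or Dry was the extreme depends on the scaling.

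A view of the question that shares no library with Rehydrated vs Late comes from Dry vs Early. In that comparison 1843 genes (18.7%) were higher and 2293 (23.3%) lower. Of the genes higher in Dry than in Early, 923 (50.1%) were also higher in Rehydrated than in Late and 86 (4.67%) were lower, against 19.2% and 18.5% of all genes tested. The 923 genes are 48.8% of all genes higher in Rehydrated. Of the genes lower in Dry than in Early, 1093 (47.7%) were also lower in Rehydrated than in Late and 45 (1.96%) were higher. The 1093 genes are 60.1% of all genes lower in Rehydrated. The Rehydrated vs Late median log2 fold change was 1.31 over the first list and -1.33 over the second. With library totals the lists from Dry vs Early held 849 and 4315 genes, of which 710 (83.6%) and 629 (14.6%) were called the same way in Rehydrated vs Late, against 29.8% higher and 7.83% lower among all genes tested on that scale. Without Late replicate 1 the genes higher in both numbered 479. Without Rehydrated replicate 1, 854 of 1940 genes were higher in both and 936 of 2454 were lower in both.

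The size of those genes' remaining shift can be read from their levels in the libraries that did not choose them. The genes higher in Dry than in Early had a median of 27.7 and 33.9 CPM in the Rehydrated libraries, against 12.8 and 12.7 CPM in the Late libraries. In the Dry libraries, which helped to choose them, the median was 69.1 and 59.6 CPM. The genes lower in Dry than in Early had a median of 8.39 and 7.99 CPM in Rehydrated, against 19.2 and 17.7 CPM in Late. Their medians in Dry, 2.94 and 3.14 CPM, lie below the 4.41 and 4.70 CPM that 3 counts make there. With TMM scaling the Rehydrated medians lay between those of Late and Dry in both lists, and the 3 stages did not overlap. With library totals the first list had medians of 55.0 and 42.2 CPM in Rehydrated, against 13.9 and 9.66 CPM in Late, and it stood above its Dry medians of 32.6 and 24.0 CPM. The second list then had 16.7 and 9.93 CPM in Rehydrated, against 20.9 and 13.4 CPM in Late, and these overlapped.

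Genes called at the start of drying were more often called in the opposite than in the same direction in Rehydrated vs Late. In Early vs Hydrated, which also shares no library with Rehydrated vs Late, 230 genes (2.33%) were higher and 269 (2.73%) lower. Of the 230 genes higher in Early, 159 (69.1%) were lower in Rehydrated than in Late and 19 (8.26%) were higher, against 18.5% and 19.2% of all genes. Of the 269 genes lower in Early, 114 (42.4%) were higher in Rehydrated than in Late and 23 (8.55%) were lower. The list of 230 has larger mean counts than the genes at large, with a median of 53.4 against 14.6. Genes with larger mean counts were more often lower. Within the range of 20 to 100 counts, 93 of its 122 genes (76.2%) were lower, against 30.7% of all genes in that range. The lists rest on each of the libraries that made them. Genes higher in Early and lower in Rehydrated numbered 91 of 132 without Hydrated replicate 1 and 33 of 79 without Hydrated replicate 2. They numbered 44 of 109 without Early replicate 1 and 69 of 96 without Early replicate 2. Without Rehydrated replicate 1 they numbered 191 of 328, and without Rehydrated replicate 2 253 of 397. Relative to library totals 34 genes were higher in Early, of which 15 were lower in Rehydrated. Genes lower in Early and higher in Rehydrated numbered 34 of 113 without Hydrated replicate 2, 38 of 106 without Early replicate 1, 29 of 93 without Early replicate 2 and 115 of 350 without Rehydrated replicate 1.

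The levels of these early genes are given by stage, but the Hydrated and Early libraries helped to choose the genes. Only the Late, Dry and Rehydrated libraries did not. The genes that had risen in Early had medians of 15.9 and 14.4 CPM in Hydrated, 48.1 and 52.1 in Early, 56.4 and 51.9 in Late, 26.5 and 25.1 in Dry and 13.4 and 13.5 in Rehydrated. With TMM scaling their median was thus lower in Rehydrated than in Late and Dry, which did not choose the genes. It was also below Hydrated and Early, which did. With library totals it was 26.7 and 16.8 CPM in Rehydrated, against 61.4 and 39.4 CPM in Late, and it overlapped with Hydrated at 23.6 and 22.8 CPM. Their summed share of counts went the other way, at 6.70% and 3.96% in Rehydrated against 3.73% and 2.74% in Late, and of their 9 genes with a mean of 1000 counts or more 5 were higher in Rehydrated and 2 lower, against 15.9% higher and 52.9% lower among all genes of that range. The genes that had fallen in Early had medians of 28.6 and 32.1 CPM in Hydrated, 7.12 and 6.74 in Early, 5.60 and 7.06 in Late, 8.82 and 9.41 in Dry and 14.3 and 14.0 in Rehydrated. Their median in Rehydrated lay above Late and Dry, which did not choose the genes. It also lay above Early and below Hydrated, but those libraries did choose them. With library totals Rehydrated kept this place, at 28.4 and 17.4 CPM, against 6.09 and 5.36 CPM in Late and 42.5 and 50.7 CPM in Hydrated. Dry was then the lowest stage, at 4.16 and 3.79 CPM.

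**Figure D3:**
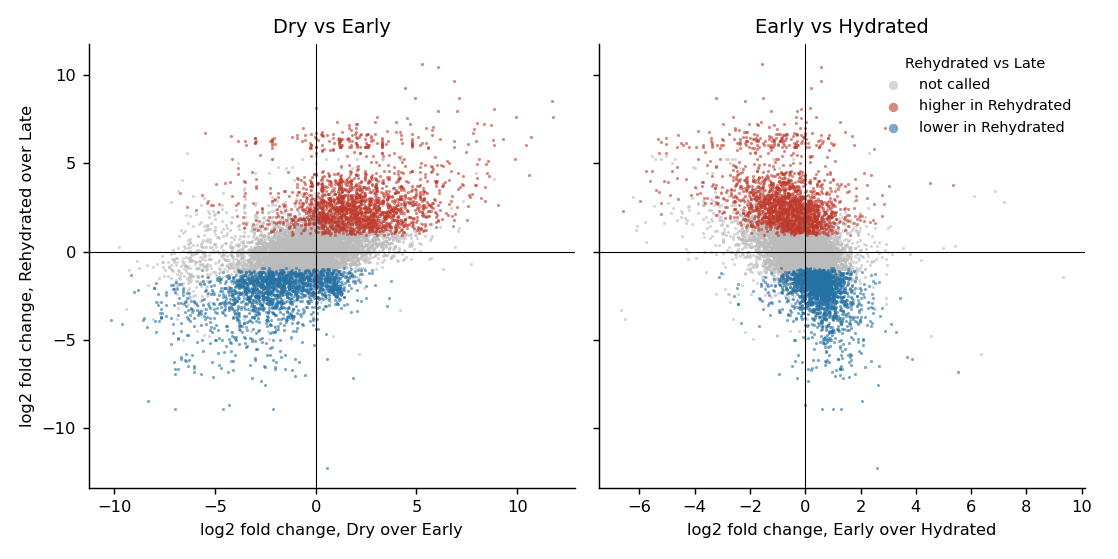
Each point is 1 of the 9856 genes, with its log2 fold change, Rehydrated over Late, on the vertical axis and that of Dry over Early (left) or Early over Hydrated (right) on the horizontal axis; colour gives the call in Rehydrated vs Late. The 923 genes higher in both and the 1093 lower in both fill the upper right and lower left of the left panel, and the right panel leans the other way.

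The place of Rehydrated relative to the drying course was also measured over all tested genes at once. The distance between 2 stages was taken as the root mean squared (RMS) log2 difference per gene, computed by multiplying differences between separate pairs of libraries so that independent noise of single libraries drops out. Each library was first centred on its mean log2 CPM. Rehydrated lay 1.13 from Dry, 1.37 from Hydrated, 1.44 from Late and 1.56 from Early. Within drying, Early lay 0.641 from Hydrated, Late 0.430 from Early and Dry 1.66 from Late. On this scale Rehydrated was nearer to Dry than to any other stage, and its distance to Late, the last wet stage sampled, was not smaller than that to the Hydrated start. Both statements depend on choices: with library totals and no centring Dry was the farthest stage, at 1.77, against 1.63 for Early and 1.57 for Late, and Hydrated was the nearest. Among the 1096 genes with a mean of at least 100 counts Dry was nearest at 1.37, followed by Late at 2.22 and Hydrated at 2.41. With 2 libraries per stage these distances were not tested.

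On the straight line from Late to Dry, Rehydrated projected to a point 64.3% of the way to Dry, which is 35.7% of the way back to Late, and it lay 0.960 off the line, which is 57.8% of the line's length of 1.66. The drying course itself was not straight: Late lay 0.762 off the line from Hydrated to Dry. A stage between Late and Dry could therefore also lie off this line, and none was sampled. Replicate pairings 1 with 1 and 1 with 2 gave 64.8% and 63.7%. Among the more abundant 1096 genes Rehydrated lay 77.1% of the way to Dry. The position depends on how libraries are put on a common scale, since library totals without centring placed Rehydrated 38.0% of the way to Dry and 1.43 off the line.

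**Figure D4:**
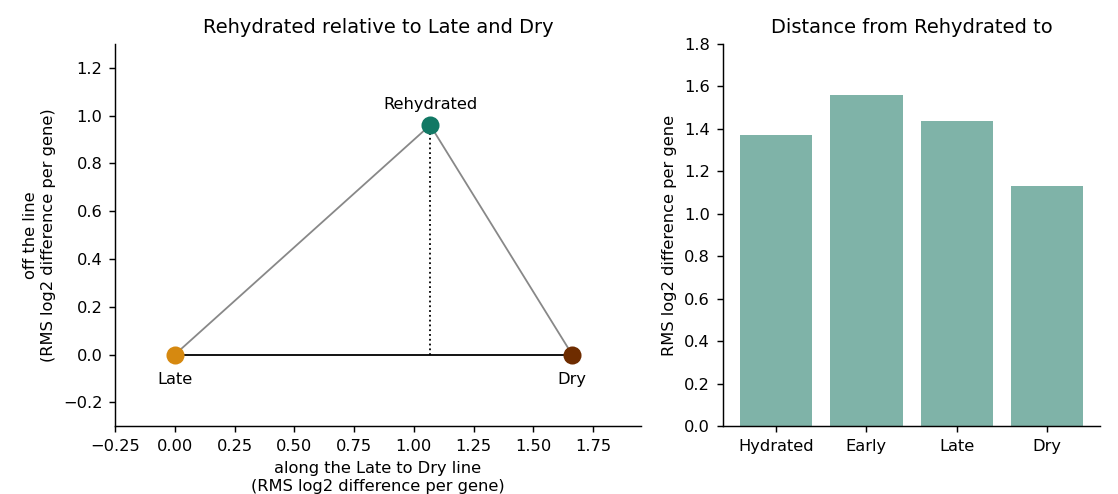
Left, Late, Dry and Rehydrated drawn to scale from their 3 distances, in RMS log2 difference per gene, with the line from Late to Dry along the bottom and the dotted line giving the 0.960 by which Rehydrated lies off it. Right, distance from Rehydrated to each of the other stages, which is smallest for Dry at 1.13 with centred libraries but largest for Dry, at 1.77, with library totals; there are no error bars because each distance uses all 4 libraries of its 2 stages.

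Single genes are given by library, and not all follow the group medians. Of the 4 named here, the 2 that rose were also called higher in Dry than in Late. The 2 that fell were not called in Dry vs Late. Their log2 fold changes there were 0.12 and 0.32, whereas the median of the lower genes was -1.86. By a fixed rule, 4 genes are named: in each direction the one with the largest log2 fold change and the one with the highest level, among the 424 higher and 415 lower genes that were called under the 4 scalings, changed at least 2-fold, averaged at least 50 counts and did not overlap between the stages. The largest rise was that of TRINITY_DN180827_c10_g2. It had 156 and 136 counts in the Rehydrated libraries, against 0 in both Late libraries. Among the other libraries it had 25 and 15 counts in Hydrated, 9 and 0 in Early and 94 and 45 in Dry. With 3 counts per library standing for the 0, it was at least 59.0-fold higher in Rehydrated with TMM scaling and at least 102-fold with library totals (edgeR adjusted p = 2.03e-07). Its level in Rehydrated, 133 ± 3.39 CPM (SD, n = 2), stood beside 104 ± 47.8 CPM in Dry with TMM scaling (log2 fold change 0.35, edgeR adjusted p = 0.577), which does not show that the levels were alike. With library totals it had 260.2 and 169 CPM in Rehydrated, against 65.1 and 28.4 CPM in Dry, with no overlap.

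TRINITY_DN163379_c3_g1 was the most abundant of the eligible higher genes. It stood at 9857 and 22284 CPM in Rehydrated, against 2671 and 3675 CPM in Late, a log2 fold change of 2.34 (SE 0.565, edgeR adjusted p = 0.00283). It had 148175 and 204113 CPM in Dry, where it took 6.94% and 8.17% of all counts, and 3363 and 4146 CPM in Hydrated. Rehydrated thus lay between Dry and the wet stages for this gene, with no overlap. Its call was lost without Late replicate 1 (edgeR adjusted p = 0.154) and without Late replicate 2 (0.0627), and its log2 fold change was 1.41 without Rehydrated replicate 2. All 10 libraries gave it fractional counts, which arise when reads match more than 1 assembled gene.

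The largest fall was that of TRINITY_DN11536_c1_g2. No count was found in either Rehydrated library (0 and 0), against 376 and 739 in the Late libraries. It was at least 149-fold lower in Rehydrated with TMM scaling and at least 82.9-fold with library totals (edgeR adjusted p = 0.00395). Libraries of 1 stage differed widely for this gene, with 0 and 216 counts in Hydrated, 0 and 807 in Early and 554 and 51 in Dry. With limma on log2(signal + 0.1), from the deposited signal, its adjusted p was 0.0641, and 6 libraries gave it fractional counts.

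The most abundant of the eligible lower genes, TRINITY_DN264191_c5_g1, was the most abundant gene of both Late libraries. It took 1.54% and 3.23% of the counts in Rehydrated, against 7.73% and 11.9% in Late. On the TMM scale it had 8346 and 26656 CPM in Rehydrated, against 71900 and 158555 CPM in Late, and it fell by 2.72 on the log2 scale (SE 0.698, edgeR adjusted p = 0.00447). It had 33678 and 40290 CPM in Hydrated, 28220 and 103535 CPM in Early and 130695 and 157718 CPM in Dry. Rehydrated thus lay below every other library, though Rehydrated replicate 2 was close to Early replicate 1. Its call was lost without Late replicate 2 (edgeR adjusted p = 0.0596) and with limma on log2(signal + 0.1) (adjusted p = 0.0663). Its log2 fold change was -4.02 without Rehydrated replicate 2 and -2.13 without Rehydrated replicate 1.

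**Figure D5:**
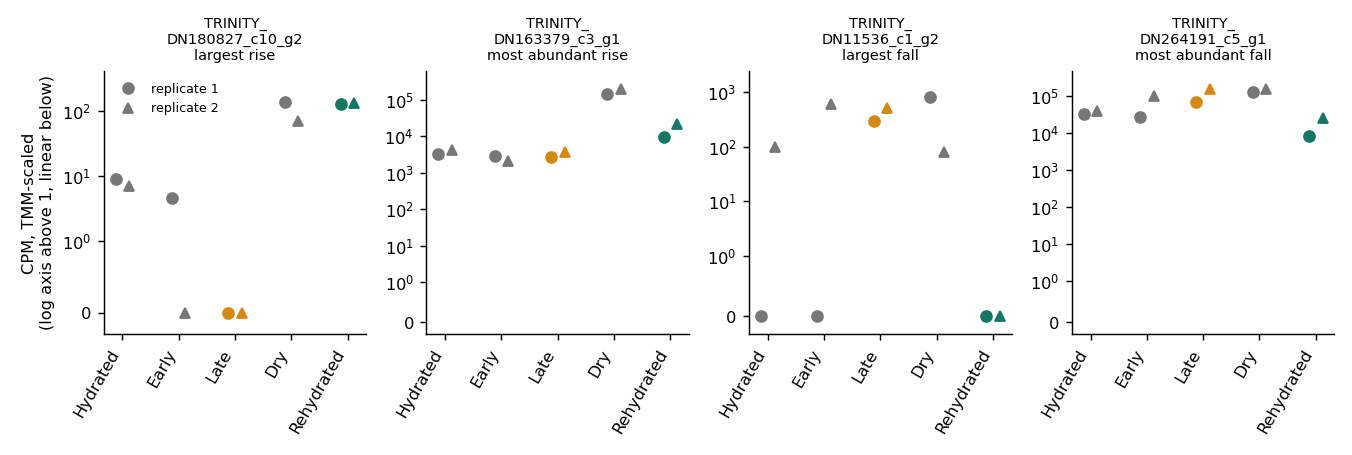
Level of the 4 named genes in every library, in TMM-scaled CPM, by stage in the order of the course; the axis is logarithmic above 1 and linear below, circles are replicate 1, triangles are replicate 2, and Late and Rehydrated are coloured. TRINITY_DN180827_c10_g2 is at 133 CPM on average in Rehydrated and at 0 in Late, and TRINITY_DN11536_c1_g2 is at 0 in Rehydrated and at 411.5 CPM on average in Late.

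Complete presence or absence was rare. Among all 20783 assembled genes, 13 had at least 10 counts in each Rehydrated library and 0 in both Late libraries, although the Rehydrated libraries held 1471337 counts together, against 3043173 in the Late libraries. None of these 13 was at 0 in both Dry libraries, and 6 had at least 10 counts in each. In the other direction, 18 genes had 0 counts in both Rehydrated libraries and at least 10 in each Late library. Of these 18, 5 were at 0 in both Dry libraries and 11 had at least 10 counts in each Hydrated library. A count of 0 allows a level of up to 3 counts, which corresponds to 2.52 and 2.99 CPM in the Rehydrated libraries and to 2.40 and 2.12 CPM in the Late libraries. Among the called genes, 175 of the higher (9.25%) had 0 counts in both Late libraries and 46 of the lower (2.53%) had 0 in both Rehydrated libraries. With these genes at their bounds, of 3 counts per library, the median log2 fold changes were 2.33 and -2.06 in place of 2.56 and -2.10.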

How the data were processed

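RNA was sequenced from 10 libraries, and ribosomal RNA had been depleted with commercial and custom oligos, per the labels' protocols. The authors deposited expected counts per assembled gene, not normalized, and a TMM-normalized expression signal corrected for gene length. Tools listed in the submitters' processing notes are DESeq2, RSEM 1.2.28, Bowtie2 2.2, Trimmomatic 0.35 and CASAVA 1.4. The use made of each, the making of the assembly and the selection of plant genes are all not given in the sources used here. In RSEM output, reads that match several genes are divided among them, and 2.59% to 4.58% of values per library were not whole (tolerance 1e-09).

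Table columns were matched to titles by number and time code. Expected counts were rounded, genes filtered with filterByExpr (minimum count 10), which kept 98.3% of counts, and scaled with TMM. The edgeR quasi-likelihood test (edgeR 4.0.16, R 4.3.3) used 1 fit over 10 libraries with a term per stage, 5 residual degrees of freedom, and Benjamini-Hochberg adjustment per comparison; the same scripts were tested on simulated data. CPM refer to TMM-scaled totals of tested genes. Totals per library lay between 644705 and 1917825. Limits from 3 counts cover counting error only, since reads carry no molecular identifiers. With 2 and 2 libraries the smallest exact permutation p is 0.333, so that test was not made. Libraries of a stage differed by more than sampling noise (chi-square over degrees of freedom 11.1 to 42.2). The comparison, the lists and the rule for the named genes were chosen with earlier results of these data known. Alternatives were DESeq2 1.42.0, limma 3.58.1 on log2(signal + 1) or log2(signal + 0.1), other scalings and filters, a replicate block and each library left out. No list of known genes was applied, because the files pair no identifier with a name.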

Additional observations from a re-analysis of the deposited data

How the results depend on the processing

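The counts of genes moved with the scaling, the test, the depth and single libraries. With library totals 2938 genes were higher and 772 lower. Of 4315 genes lower in Dry vs Early, 629 (14.6%) were then also lower in Rehydrated vs Late. Of 34 genes higher in Early vs Hydrated, 15 (44.1%) were lower in Rehydrated vs Late. Of 374 genes lower in Early, 223 (59.6%) were higher in Rehydrated. This last count was 176 of 326 (54.0%) with a minimum count of 30 and 59 of 135 (43.7%) with DESeq2. In the main fit the early counts were 159 of 230 (69.1%) and 114 of 269 (42.4%). With limma on log2(signal + 1), 884 genes passed beyond 2-fold, and the early lists, of 9 and 18 genes, shared 5 and 6. With limma on log2(signal + 0.1), 944 genes were higher, 748 passed beyond 2-fold, 507 were higher in both Dry vs Early and Rehydrated vs Late, and the early lists, of 2 and 4 genes, shared 0 and 3. Thinning every library to 644686 counts, chosen after the data were seen, left 5756 genes to test. Of these, 1278 were higher and 1183 lower. The early counts were then 69 of 96 (71.9%) and 66 of 155 (42.6%). Leaving out 1 library at a time gave 825 to 1925 higher genes, 1463 to 2154 lower genes, 1308 to 1950 beyond 2-fold, 479 to 854 higher and 936 to 1249 lower in both Dry vs Early and Rehydrated vs Late, and 33 to 253 and 29 to 128 in the early lists. In these leave-one-out fits 1 stage held 1 library and the filter was rerun, so other genes than the 9856 were tested. Leaving out a library outside Rehydrated vs Late also moved the calls, so the ranges do not isolate the effect of single libraries. None of the 1891 higher and 1819 lower genes was called the opposite way under any alternative. The position on the way to Dry was 65.3% with a prior count of 0.5, 62.7% with 5, 77.1% for abundant genes, 63.5% without centring, 38.0% with library totals and 63.2% without genes of non-whole counts. The distance from Late was 1.74, 1.21, 2.22, 1.57 (library totals) and 1.39 (whole counts) in the same settings. It could not be computed with a library left out, since it needs both libraries of a stage. The causes of these shifts were not tested.

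Whether equal replicate numbers pair the samples is not given in the labels. The correlation of the replicate 1 minus replicate 2 differences lay between -0.0815 and 0.149 over pairs of stages. It was 0.135 for Rehydrated and Late. Low values do not exclude a pairing, since such differences also carry the noise of single libraries. With the replicate number as a block there were 1899 higher and 1870 lower genes. Early vs Hydrated then held 316 higher and 329 lower genes, against 230 and 269 in the main fit. Depth limits calls among genes under 20 counts, where the median half-width of the 95% interval was 1.56.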

Other observations

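Assembled genes whose identifiers share everything but the last number belong to 1 component of the assembly. Called genes fell into 3564 components, of which 120 held more than 1 called gene. In 111 of these all called genes moved in 1 direction between Late and Rehydrated, and in 9 (7.50%) they moved in both. At the broader level of the cluster number, 84 of 382 clusters with more than 1 called gene (22.0%) held genes called in both directions. Counts that were not whole in at least 1 library occurred in 364 of the higher genes (19.2%), 307 of the lower genes (16.9%) and 807 of the genes not called (13.1%).

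Relative gene length, taken as counts over deposited signal and scaled to the median gene of each library, had a median of 1.04 among the higher genes, 0.945 among the lower genes and 0.975 over all genes tested. Its part in the result was not tested.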
